A study of Zea mays with 4 samples.

Results

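The cells described here are maize endosperm protoplasts with a strong transcript program of the basal endosperm transfer layer (BETL), called BETL-strong cells below. They were chosen by transcript content. Among cells with 500 to 7500 detected genes and at least 1000 unique molecular identifiers (UMIs, each marking 1 captured transcript), a cell was taken when at least 8% of its UMIs came from 9 BETL genes, called the rule genes: BETL9, BETL10, BETL3, BAP2, TCRR1, gpm832, Zm00001d053108, Zm00001d052759 and Zm00001d053785. Of 17271 kept cells, 1566 (9.07%) met this rule. They were set against 13887 cells with under 1% of their UMIs in these genes, called BETL-low cells. The 1818 cells between both limits were used only where stated. BETL-low cells mix several cell types, among them aleurone, starchy endosperm and the embryo-surrounding region. A BETL-low level is therefore an average over cell types and can rest on a few of them. Embryo, nucellus and abnormal cells, which the study set aside, were not taken out here. Endosperm came from wild-type kernels of the B73 inbred line, and no group carried a mutation or a treatment. There was 1 library from kernels at 6 days after pollination (DAP) and there were 3 libraries from 7 DAP. Each library pooled the endosperm of many kernels after digestion of the cell walls, so a library stands for a pool of kernels at 1 age, and transcripts that change during wall digestion are part of every value.

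The BETL lies at the base of the endosperm, against the maternal tissue through which the kernel is fed. Its cells carry wall ingrowths that enlarge the plasma membrane, cleave arriving sucrose with a wall-bound invertase and import the resulting hexoses. They also secrete many small cysteine-rich peptides, some of them antifungal, and the MYB-related factor MRP1 is known as an activator of BETL promoters.

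The study located BETL transcripts in kernel sections by in situ hybridization, with probes amplified by gene-specific primers. The forward primers for 5 of the rule genes and for MRP1 are shown because they name, in sequence, the transcripts on which the choice of cells and the check of their identity rest. They are printed 5′ to 3′, and capitals mark an ATG at the first base, present in 4 of the 6 primers.
MRP1, Zm00001d010889: tgaggcttgttcagggacaac
BETL9, Zm00001d041822: ATGgcaaaactactcttgggt
BAP2, Zm00001d049576: tgcagcagcttccaaggattat
Zm00001d053108: ATGgcactcatcatcaagagc
Zm00001d052759: ATGgccaagtcgaccgcga
Zm00001d053785: ATGcactctggactatatatagg

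BETL-strong cells were found in every library, as 280 of 3142 kept cells at 6 DAP (8.91%, exact 95% interval 7.94 to 9.96) and as 414 of 4835, 452 of 4893 and 420 of 4401 in 7 DAP replicates 1, 2 and 3 (8.56%, 9.24% and 9.54%). The 7 DAP libraries averaged 9.11% ± 0.502 (SD, n = 3), and the 6 DAP value lay inside their range. Intervals cover counting error only. There was no gap in the share of UMIs in the rule genes at the limit: 51, 57, 56 and 40 cells lay between 7% and 8%, and 42, 41, 50 and 34 between 8% and 9%. The rule therefore cuts a range. Just outside the limit MRP1, a BETL regulator described below, stood at 138, 93.8, 240 and 184 counts per 1000000 UMIs in the 4 libraries, and just inside it at 154, 365, 165 and 207. MEG1, a secreted peptide, stood at 1355, 488, 423 and 219 just outside and at 1895, 870, 537 and 588.5 just inside. When every cell was thinned to 1000 UMIs, 8.88% of cells at 6 DAP and 8.54% to 9.63% at 7 DAP held at least 8%, and 95.8% to 97.1% of BETL-strong cells still did. Within BETL-strong cells the median share was 11.6% at 6 DAP and 13.4%, 13.1% and 13.8% at 7 DAP, and the highest cell in each library reached 30.6%, 35.2%, 32.4% and 47.1%.

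**Figure D1:**
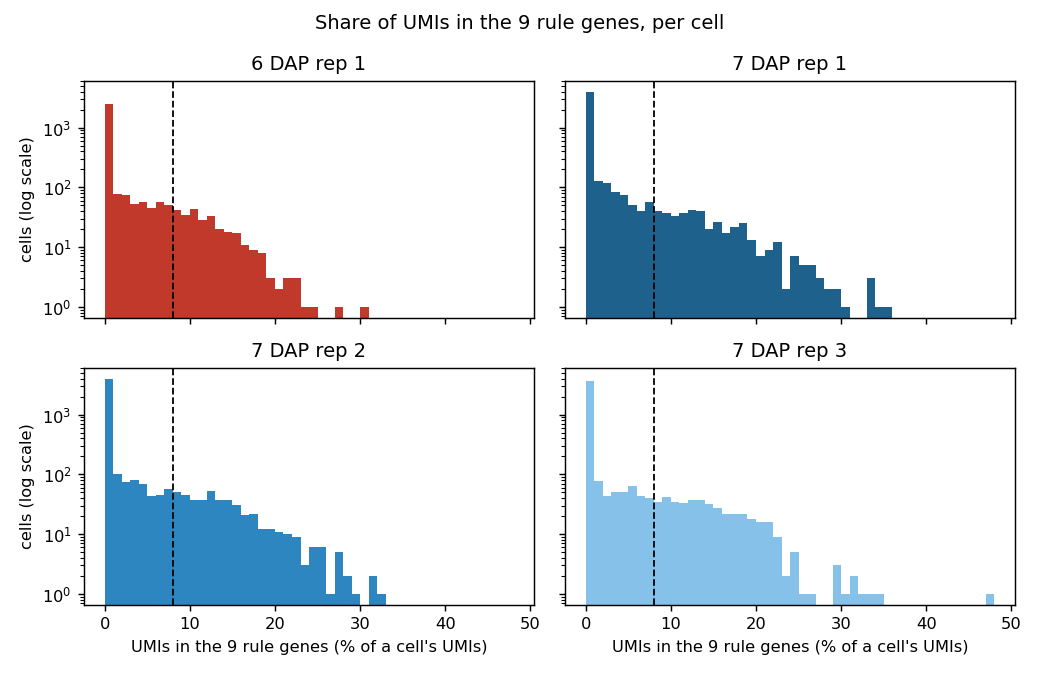
Number of kept cells (log scale) by the percent of their UMIs in the 9 rule genes, in bins of 1 percentage point, for each library; the dashed line is the limit of 8%. Most cells lie under 1%, and the counts decline across the limit without a gap in all 4 libraries.

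The deposited libraries differed in depth, with 8248575 UMIs at 6 DAP and 26756925 to 36740377 at 7 DAP. BETL-strong cells were the deeper class, with a median of 1972 UMIs against 1771 in BETL-low cells at 6 DAP, and 7386, 8517 and 9980 against 3855, 5312 and 5260 at 7 DAP. No library stood apart in the share of BETL-strong cells. Libraries shared 3 to 7 kept barcodes per pair, and in all 1 barcode was BETL-strong in both libraries of a pair. Mitochondrial transcripts made up 0.0661% to 0.114% of UMIs in BETL-strong cells and 0.1995% to 0.246% in BETL-low cells. Levels below are summed UMIs of a class in a library, scaled to counts per 1000000 (CPM) of the UMIs outside the 9 rule genes, and a ratio is the CPM in BETL-strong cells over that in BETL-low cells of the same library, with sums under 3 UMIs set to 3. The contrast that chose the cells is the one described, and 6 DAP has a single library, so no test is given and the spread over libraries is shown in its place.

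Before any other result, the label was checked with MRP1, the known BETL regulator, which the rule did not use. The study named its BETL clusters among these same cells by MRP1 together with the rule genes BETL9 and TCRR1. MRP1 is therefore not independent of the rule genes. MRP1 stood at 213 CPM in BETL-strong cells at 6 DAP and at 235, 205 and 258 CPM in 7 DAP replicates 1, 2 and 3, against 1.45, 2.42, 2.03 and 2.53 CPM in BETL-low cells. The classes did not overlap, and the ratio was 147 at 6 DAP and 96.8 to 102 at 7 DAP. With every cell thinned to 1000 UMIs, an MRP1 UMI was seen in 14.3% of BETL-strong cells at 6 DAP and in 15.2%, 11.3% and 15.7% at 7 DAP, against 0.0409% to 0.305% of BETL-low cells. Unthinned, the shares were 22.9% to 44.8% and 0.287% to 0.983%. The MRP1 level thus went with the BETL label for the class as a whole, but it is not independent evidence for it.

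Within the rule genes, which are a description of how the cells were picked, UMIs were unevenly divided. Zm00001d053785, annotated as defensin-like, held 46% to 51.1% of the rule-gene UMIs in every library, and Zm00001d052759, annotated as a lipid transfer protein, held 26.8% to 27.9%. These 2 genes together held 73.7% to 77.8%, so the limit of 8% is mostly a limit on them. The other 7 rule genes took a median of 2.86% to 3.44% of the UMIs of a BETL-strong cell. Zm00001d053108 took 0.761% of UMIs at 6 DAP and 1.34% to 1.41% at 7 DAP, and BETL3 0.462% against 0.73% to 0.771%. BAP2 took 0.677% at 6 DAP and 0.585% to 0.607% at 7 DAP. TCRR1, a response regulator of the cytokinin phosphorelay, was the rarest, with a UMI in 43.6% to 53.8% of BETL-strong cells.

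Outside the rule genes, BETL-strong cells held a large set of further transcripts that BETL-low cells almost lacked. A gene was counted as higher or lower when its ratio was at least 2, or at most 0.5, in each of the 4 libraries. The higher class also needed a mean of at least 10 CPM. A gene under this minimum in BETL-low cells was tested only through BETL-strong cells and could not be called lower. The reverse held for genes under it in BETL-strong cells. Of 10500 genes tested, 376 (3.58%) were higher and 1162 (11.1%) were lower. The median tested gene had a log2 ratio of −0.37, −0.42, −0.44 and −0.48 in the 4 libraries, so the direction of a small change depends on the scaling. With each library centred on its median gene, 524 genes were higher and 679 lower. A set of 47 genes was at least 100-fold higher in every library, and they took 7.83% to 8.77% of all UMIs of BETL-strong cells and 0.0159% to 0.0296% of those of BETL-low cells.

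**Figure D2:**
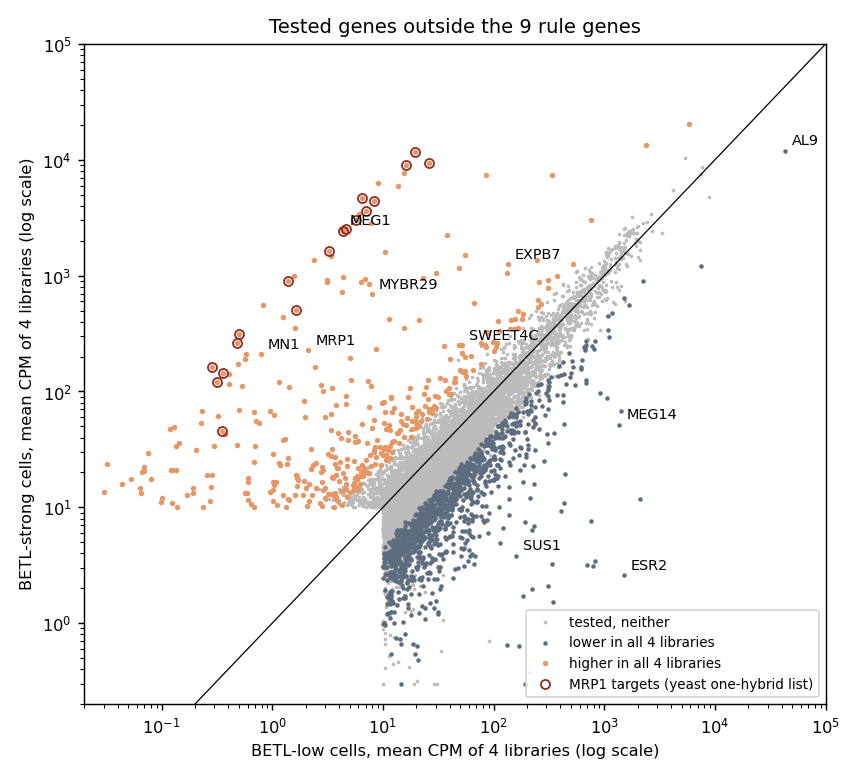
Mean CPM of 4 libraries in BETL-strong cells against BETL-low cells (both log scales) for the genes tested outside the 9 rule genes; each point is a gene, the line marks equal levels, and rings mark the MRP1 target list. The 376 higher genes spread up to ratios above 100, and all 18 ringed genes lie at the upper left.

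The 15 genes that stood furthest apart among those with a mean of at least 50 CPM, ranked by their lowest ratio among the 4 libraries, were led by gpm833 (Zm00001d048630), at 4011, 4962, 4584 and 5174 CPM in 6 DAP and 7 DAP replicates 1, 2 and 3 against 4.72, 9.29, 6.81 and 4.9 CPM. Its ratio was never under 534. The most abundant of the 15 was Zm00001d042229, with 13680 CPM at 6 DAP and 12110, 9348 and 11620 CPM at 7 DAP against 11.7 to 27.3 CPM. Zm00001d007447 (6941 CPM at 6 DAP, 9505 to 10070 at 7 DAP) and Zm00001d007444 (4443 CPM at 6 DAP, 8115 to 9478 at 7 DAP) followed in level. The ranking also held MEG1, MEG3 and MEG13, described below, and Zm00001d024549, Zm00001d048622, Zm00001d010592, Zm00001d042226, Zm00001d027072, Zm00001d024619, Zm00001d007470 and Zm00001d024620, most of them without a name in the files. Many of these identifiers are numbered close together. Of the 47 genes past 100-fold and the 9 rule genes, 26 fell into 6 runs of at least 3 identifiers whose neighbours differ by no more than 30, such as Zm00001d024610 to Zm00001d024620 with 6 genes, Zm00001d007443 to Zm00001d007471 with 5 and Zm00001d053095 to Zm00001d053114 with 5. How reads were divided among near-identical copies was not examined, so levels of single members of such families, the MEG and BAP3 genes included, are uncertain.

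Most listed transcription factors and signalling regulators of the BETL were higher in BETL-strong cells at both ages. Of a list of 16 regulators, drawn from the study and so not independent evidence, 10 were higher and none was lower. Of all tested genes 3.58% were higher. All 10 reached the minimum of 10 CPM only through BETL-strong cells, such as MRP1 at 1.45 to 2.53 CPM in BETL-low cells. The filter thus largely fixed their direction in advance. MYBR29, a MYB-related factor, was the most abundant MYB of the list, at 636 CPM at 6 DAP and 682, 672 and 784 CPM at 7 DAP, against 6.9 to 8.75 CPM in BETL-low cells. TCRR2, a response regulator related to TCRR1, stood at 955, 689.4, 606 and 653 CPM in the 4 libraries against 3.53 to 5.4 CPM. HB118, a homeodomain factor, stood at 203 CPM at 6 DAP and 134 to 164 CPM at 7 DAP, a ratio of 55.8 to 79.2. The 3 MYB-related factors MYBR33, MYBR81 and MYBR19 were less abundant, at 36.9 to 82.8 CPM, but nearly absent from BETL-low cells, which held 0 to 0.515 CPM.

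The ethylene response factors of the list differed among themselves. EREB108 was even across libraries, at 77.5, 76.4, 76.8 and 80.8 CPM with a ratio of 15.1 to 19.3, and EREB150 was rare, at 8.48 to 14.1 CPM. EREB14 had a ratio of 1.52 to 1.73 and did not pass the rule. HB96, another homeodomain factor, stood at 130 CPM at 6 DAP and 47.7 to 66.9 at 7 DAP, a ratio of 7.29 to 12.2. The NAC factors NACTF49 and NACTF109, EREB79, IAA32 and HSFTF6 were expressed in both classes and passed in neither direction, with ratios between 0.404 and 1.07.

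Across all features that the deposited table names as transcription factors, a list drawn up with results known, 26 of 531 tested were higher and 84 lower, shares of 4.9% and 15.8% beside 3.58% and 11.1% of all genes. By the geometric mean of the 4 ratios, with sums under 3 UMIs set to 3, the highest were MYB-related: MYBR19, MYBR81, MYBR9 and MYBR33. MYBR9 (Zm00001d024814) was no member of the list of 16, and stood at 15.9 CPM at 6 DAP and at 35.8, 34.7 and 30.6 CPM at 7 DAP against 0 to 0.152 CPM in BETL-low cells. Among the lower were MYB83, WRKY95, MYB106 and HB91, with 0.53 to 4.02 CPM in BETL-strong cells at 7 DAP against 21.7 to 35.7 CPM.

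**Figure D3:**
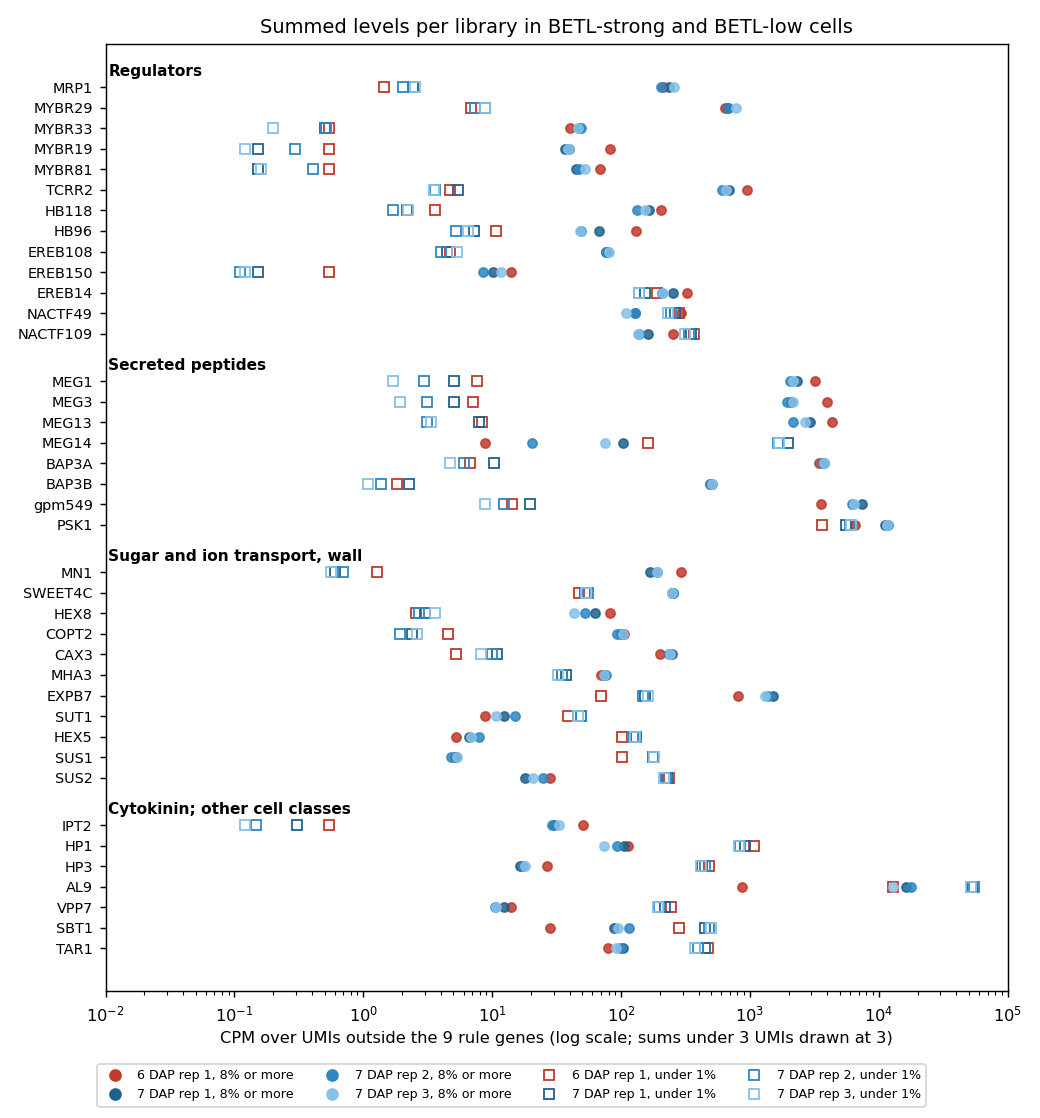
CPM (log scale) of listed genes in BETL-strong cells (filled circles) and BETL-low cells (open squares), 1 symbol per library, by role; sums under 3 UMIs are drawn at 3 UMIs. Most regulators, peptides and importers of the BETL separate by more than 10-fold in every library, whereas MEG14, SUS1, HEX5, HP1, HP3 and the aleurone genes lie the other way.

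All tested targets of MRP1 were high. A list of 23 targets, which the study had taken from an earlier yeast binding assay, holds 4 rule genes, and 18 of the other 19 were abundant enough to test. All 18 were higher, beside 3.58% of all tested genes, with a median ratio of 413, 422, 636 and 851 in the 4 libraries, where the median tested gene had 0.718 to 0.776. The list was taken up with earlier results of these cells known, so the count is not independent evidence. Targets such as Zm00001d045546, at 0.184 to 1.09 CPM in BETL-low cells, reached the minimum of 10 CPM only through BETL-strong cells. For such genes the filter largely fixed the direction in advance. Among the most abundant was Zm00001d053113, at 7800 CPM at 6 DAP and 10410, 9077 and 10020 CPM at 7 DAP. The gene too rare to test, Zm00001d025037, stood at 4.24 to 8.81 CPM with a ratio of 6.39 to 16.2.

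The maternally expressed gene (MEG) family, small secreted peptides of which MEG1 is known to promote transfer cell formation, divided into opposite patterns. MEG1 (Zm00001d019030, which the deposited table names maternally expressed gene6) stood at 3215 CPM at 6 DAP and 2333, 2052 and 2178 CPM at 7 DAP, against 1.69 to 7.63 CPM. MEG3 stood at 3935 CPM at 6 DAP and 1957 to 2175 CPM at 7 DAP, and MEG13 at 4337 CPM and 2171 to 2943 CPM. These 3 genes were all higher at 6 DAP than in any 7 DAP library, though by less than 2-fold. Over their 7 DAP means the 6 DAP levels were 1.47, 1.89 and 1.67, where the median gene tested between ages had 1.23. The size of this difference therefore depends on the scaling. MEG14 lay the other way, at 8.81 CPM in BETL-strong cells against 163 CPM in BETL-low cells at 6 DAP, and at 20.4 to 103 CPM against 1649 to 1967 CPM at 7 DAP. MEG14 is also used as a marker of the embryo-surrounding region. MEG7 held at most 5.29 CPM in BETL-strong cells and no UMI in BETL-low cells.

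Of 10 further listed peptides and transfer layer genes 6 were higher and 0 lower, beside 3.58% and 11.1% of all tested genes. Secreted proteins as a group were mixed. Of 14 tested genes annotated as small secreted proteins, 5 were higher and 6 lower. Among the lower were DEF2, a defensin-like protein (ratio 0.0608 to 0.192), and Zm00001d007831, annotated as a lipid transfer or storage protein (0.0861 to 0.0942). BAP3A, a basal layer antifungal peptide, was even across libraries at 3412, 3772, 3639 and 3742 CPM against 4.74 to 10.4 CPM, and its relative BAP3B stood at 493 to 511 CPM. The gene gpm549 stood at 3558 CPM at 6 DAP and 7421, 6240 and 6441 CPM at 7 DAP, against 8.75 to 19.6 CPM. CAX3, annotated as a calcium exchanger, had a ratio of 22.5 to 38.1 and CCP4, annotated as a cathepsin B-like protease, one of 19.1 to 39.3. PSK1, a phytosulfokine precursor, was abundant in both classes, with 6541 CPM at 6 DAP and 11260 to 11890 at 7 DAP in BETL-strong cells, and its ratio of 1.81 to 2.01 missed the rule. The sorbitol dehydrogenase SODH1, the endochitinase EPR4 and BI1, a Bax inhibitor homolog, passed in neither direction.

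The sugar import route was selective. MN1, the cell wall invertase whose loss gives miniature kernels, stood at 294 CPM at 6 DAP and 168, 191 and 190 CPM at 7 DAP, against 0.562 to 1.27 CPM. SWEET4C, a hexose transporter of the BETL, was level across libraries at 247, 252, 253 and 250 CPM, against 47.2 to 55.8 CPM, a ratio of 4.54 to 5.22. HEX8, a hexokinase, stood at 82.8 CPM at 6 DAP and 43.4 to 63.3 CPM at 7 DAP with a ratio of 12.1 to 32.6. SUT7, a sucrose transporter by name, was rare, with 5.03 to 8.81 CPM against 0 to 0.152 CPM, and was under the minimum to be tested. SWEET15A held 0.255 to 2.93 CPM in BETL-strong cells and 0.908 to 2.77 CPM in BETL-low cells, too few UMIs to show a difference.

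The sugar genes that were lower include those for sucrose cleavage inside the cell. SUS1, a sucrose synthase, had 0 UMIs in BETL-strong cells at 6 DAP, which allows up to 5.29 CPM (3 UMIs), and 4.77 to 5.36 CPM at 7 DAP, against 101.5 to 181 CPM in BETL-low cells. SUS2 had a ratio of 0.0786 to 0.12, HEX5 one of 0.0504 to 0.0641 and the sucrose transporter SUT1 one of 0.226 to 0.307. Of the 16 sugar genes listed, 10 were tested, and 3 were higher and 4 lower, beside 3.58% and 11.1% of all tested genes. The other 3, the hexokinase genes HEX1, HEX2 and HEX7, passed in neither direction. MN1 and HEX8 were tested only through BETL-strong cells, and SUS1 and HEX5 only through BETL-low cells. Of 17 genes for other transport, 9 were tested and only the copper transporter COPT2 was higher (11.1% of the 9), at 93.8 to 106 CPM with a ratio of 23.3 to 49. The proton pump MHA3 had a ratio of 1.97 to 2.26, and passed once libraries were centred on their median gene.

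In the cytokinin pathway, the synthesis gene IPT2 was higher in BETL-strong cells, whereas HP1 and HP3, phosphotransfer genes that join receptors to response regulators, were lower. IPT2, a cytokinin synthesis enzyme, stood at 51.1 CPM at 6 DAP and 30, 28.9 and 32.9 CPM at 7 DAP, against 0 to 0.303 CPM. HP1 stood at 73.2 to 113 CPM against 823 to 1086 CPM, and HP3 at 16.5 to 26.4 CPM against 420 to 478 CPM. Response regulators such as TCRR2, described above, receive their phosphate from proteins of the HP family. Of 7 tested genes that the study lists for cytokinin synthesis 3 were higher and none lower, beside 3.58% and 11.1% of all tested genes. The 3 were IPT2, Zm00001d019256 (9.51 to 26.4 CPM) and Zm00001d020418 (8.93 to 21.1 CPM). In BETL-low cells they held at most 0.303, 1.29 and 2.18 CPM. They were tested only through BETL-strong cells, so the filter largely fixed their direction in advance. The median ratio of these 7 was 1.83 at 6 DAP and 0.819 to 0.983 at 7 DAP. Of the 5 tested genes of the study's cytokinin response list 0 were higher and 1 was lower, with a median ratio of 0.774 to 1.1. The cytokinin oxidases CKX8 and CKX11 and the synthesis gene IPT7 had at most 0.255 CPM in BETL-strong cells.

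In the study's lists for synthesis of auxin, jasmonate, ethylene and abscisic acid (ABA), no tested gene was higher, beside 3.58% of all tested genes. These lists had 8, 19, 9 and 2 tested genes, so few that a count of 0 lies near that share. Of the auxin synthesis list 8 were tested and 3 were lower, beside 11.1% of all tested genes, among them TAR1, an aminotransferase, at 79.3 to 103.9 CPM against 373.5 to 473 CPM. Of the jasmonate synthesis list, 6 of 19 tested were lower, led by AOC1, an allene oxide cyclase, with a ratio of 0.0587 to 0.152. With libraries centred on their median gene 4 of the 19 were lower, beside 679 of all 10500 tested genes. ACS2, for ethylene synthesis, had a ratio of 0.15 to 0.314. TS2, which the study lists with ABA synthesis, stood at 7.31 to 10.6 CPM against 133 to 151 CPM.

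Part of the secretory pathway was higher in every library. Of 39 tested genes of protein entry into the endoplasmic reticulum and folding, all from the study's cluster tables, 10 were higher and none lower, a share of 25.6% beside 3.58%, and their median ratio was 1.63 to 1.83 where that of all genes was 0.718 to 0.776. The list holds only genes that the study found enriched in clusters of these same cells, so this share is not independent evidence. The 4 highest encode parts of the machinery by which secreted proteins enter the endoplasmic reticulum and lose their signal peptide. They were Zm00001d006320, annotated as a signal peptidase subunit, with a ratio of 4.27 to 5.12, Zm00001d044231, annotated as Sec61 beta, with 3.05 to 4.13, and the signal peptidase subunit genes Zm00001d021401 with 3.56 to 3.92 and umc2510 with 2.82 to 2.99. With libraries centred on their median gene, 16 of the 39 were higher, beside 524 of all 10500 tested genes. Of 186 cytosolic ribosomal protein genes 0 were higher and 4 lower, and their median ratio was 0.87 to 1.16.

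Among wall genes a few were many-fold higher and more were lower, the direction in which most called genes lay. EXPB7, a beta-expansin, a protein that loosens walls, stood at 805 CPM at 6 DAP and 1522, 1382 and 1315 CPM at 7 DAP against 69.9 to 163 CPM. Zm00001d007187, annotated as a hydroxyproline-rich glycoprotein, stood at 11840 CPM at 6 DAP and averaged 5863 ± 534 CPM at 7 DAP (SD, n = 3), with a ratio of 17.9 to 29. Zm00001d043716, annotated as a probable mannan synthase, stood at 162 CPM at 6 DAP and 90.9 to 95.5 CPM at 7 DAP against 0.908 to 1.87 CPM. Mannan synthases make hemicellulose chains of the wall. In all, 4 of 33 wall genes (12.1%) were higher and 10 (30.3%) lower, beside 3.58% and 11.1% of all tested genes. Among the lower was another hydroxyproline-rich glycoprotein gene, Zm00001d022421, at 905.5 to 1384 CPM against 7189 to 7671 CPM. Like the secretory list, the wall list holds genes that the study found enriched in clusters of these same cells. Its shares are therefore not independent evidence in either direction. Of the G2/M list 38 of 191 tested were lower and none higher, a share of 19.9% beside 11.1%, and the median ratio was 0.488 to 0.667. With libraries centred on their median gene, 17 of the 191 were lower, beside 679 of all 10500 tested genes, and the 2 shares lay closer together. Of the S-phase list, 6 of 118 (5.08%) were lower and 1 (0.847%) was higher, both shares under those of all tested genes.

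BETL-strong cells also drew their UMIs from fewer genes. With 700 UMIs drawn from outside the rule genes in every cell, they showed a median of 515 genes at 6 DAP and 481 to 488.5 at 7 DAP, against 558 and 541 to 548 in BETL-low cells. Outside the rule genes 404 genes held 50% of their UMIs at 6 DAP and 268 to 302 at 7 DAP, against 641 and 498 to 554 genes. This count uses sums over a class. The BETL-low sums pool more cells and more cell types, so it does not show the spread within a cell. Medians over all UMIs of a cell ran the other way at 7 DAP, with 2206 to 2708 genes against 1976 to 2380, in the order of the UMIs per cell.

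Of the markers of the other endosperm classes, the aleurone and embryo-surrounding region lists were lower in sum in BETL-strong cells, and the starchy endosperm list was mixed. The 6 markers of the embryo-surrounding region, MEG14 among them, summed to 10.6 CPM at 6 DAP and 26.5 to 122 CPM at 7 DAP, against 308 and 5420 to 5905 CPM. The starchy endosperm list summed to 231 to 375 CPM against 625 to 917 CPM, with TAR1 and DE18 lower among the 4 tested. FL3, at 95.6 to 224 CPM, and O11, a regulator known from the starchy endosperm, at a ratio of 1.2 to 1.53, passed in neither direction. Both markers of the endosperm beside the scutellum, MS8 and SWEET15A, summed to 1.02 to 6.58 CPM against 6.36 to 9.29 CPM, and neither was abundant enough to test. Of the 4 aleurone markers 3 were lower, and Zm00001d024210 had no UMI in either class.

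AL9, an aleurone gene, remained among the most abundant transcripts of BETL-strong cells at 7 DAP. It stood at 16320, 17700 and 12970 CPM there and at 865 CPM at 6 DAP, against 51980 to 54410 and 12910 CPM in BETL-low cells. The other aleurone markers were scarcer: VPP7, a vacuolar proton-pumping pyrophosphatase, stood at 10.6 to 14.1 CPM against 192 to 245 CPM, and SBT1, a subtilisin, at 28.2 to 114 CPM against 283 to 498 CPM. BETL-strong cells held 1210 to 1670 AL9 UMIs for each VPP7 UMI at 7 DAP and BETL-low cells 243.5 to 275, whereas at 6 DAP, on 8 VPP7 UMIs, the values were 61.4 and 52.8. With cells thinned to 1000 UMIs, 69% to 73.2% of BETL-strong cells at 7 DAP held an AL9 UMI and 0.725% to 1.77% a VPP7 UMI, against 91.1% to 92.5% and 16.6% to 18.5% of BETL-low cells. What part RNA of aleurone cells had in the levels of BETL-strong cells was not tested.

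The genes furthest below BETL-low cells, ranked by their highest ratio, were Zm00001d019032, Zm00001d024120, SUS1, MEG14, HP3, VPP7, PDK2, HEX5, TS2 and Zm00001d026755. Zm00001d019032 stood at 1.76 CPM at 6 DAP and 6.09 to 28.9 CPM at 7 DAP, against 127.5 and 2459 to 3059 CPM. PDK2, a pyruvate orthophosphate dikinase, stood at 52.9 to 76.1 CPM against 868 to 1615 CPM. Zm00001d024120, annotated as an O-methyltransferase, had 0 UMIs at 6 DAP and 7.31 to 11.2 CPM at 7 DAP, against 119 to 281 CPM.

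Within BETL-strong cells, the level of many peptides climbed further with the share of UMIs in the rule genes, whereas that of MRP1 and MYBR29 did not climb in every library. At 7 DAP MEG1 went from 1085, 746 and 804 CPM in cells with 8% to 12% of UMIs in the rule genes, through 2269, 2342 and 1996 CPM at 12% to 20%, to 7140, 5373 and 6106 CPM at 20% or more. MEG13 climbed 5.76- to 6.9-fold and Zm00001d007470 6.22- to 7.8-fold between the same ends. The MRP1 level had no common direction, at 217, 184 and 245 CPM in the first of these ranges and 159, 226 and 436 CPM in the last. SWEET4C differed by a factor of 0.932 to 1.14 and MYBR29 by 0.849 to 1.42.

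MN1 and EXPB7 moved apart along this range. MN1 was 2.93-, 3.23- and 5.11-fold higher at 20% or more than at 8% to 12%, though in replicate 3 the middle range was lowest, at 97.5 CPM. EXPB7 fell in every 7 DAP library, from 1921, 1553 and 1452 CPM to 745, 768 and 725 CPM, and HEX8 from 67.9, 54.1 and 49.3 CPM to 27.6, 29.7 and 26 CPM. AL9 fell as well, to 3401, 4845 and 5679 CPM, from 21690, 18640 and 15290 CPM. The median UMIs per cell were 7335, 8616 and 8398 at 8% to 12% and 5292, 7517 and 9664 at 20% or more. The part of depth and of aleurone RNA in these trends was not tested.

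Across the 2773 genes with a mean of at least 50 CPM in either range, 42 (1.51%) were at least 2-fold higher at 20% or more in all 3 libraries, and 38 (1.37%) were lower. Of the 42 genes, 39 were also higher in BETL-strong than in BETL-low cells, and of the 38 genes 14 were lower and 1 was higher. Over all 10500 genes tested between these classes, 3.58% were higher and 11.1% lower. The shares among the 2773 genes were not counted. The ranges are cut on the share of UMIs in the rule genes, the measure that also chose the cells. Cells at 20% or more are part of the BETL-strong sums, so these counts do not add evidence to each other. The steepest was Zm00001d045546, an MRP1 target of the list above, at 47.8, 27.7 and 23 CPM in the range of 8% to 12% and 1494, 784 and 1294 CPM at 20% or more, a rise of 28.3- to 56.2-fold. At 6 DAP only 12 cells reached 20%, so the same ratio rests on few UMIs there, and that for MEG1 was 1.11.

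**Figure D4:**
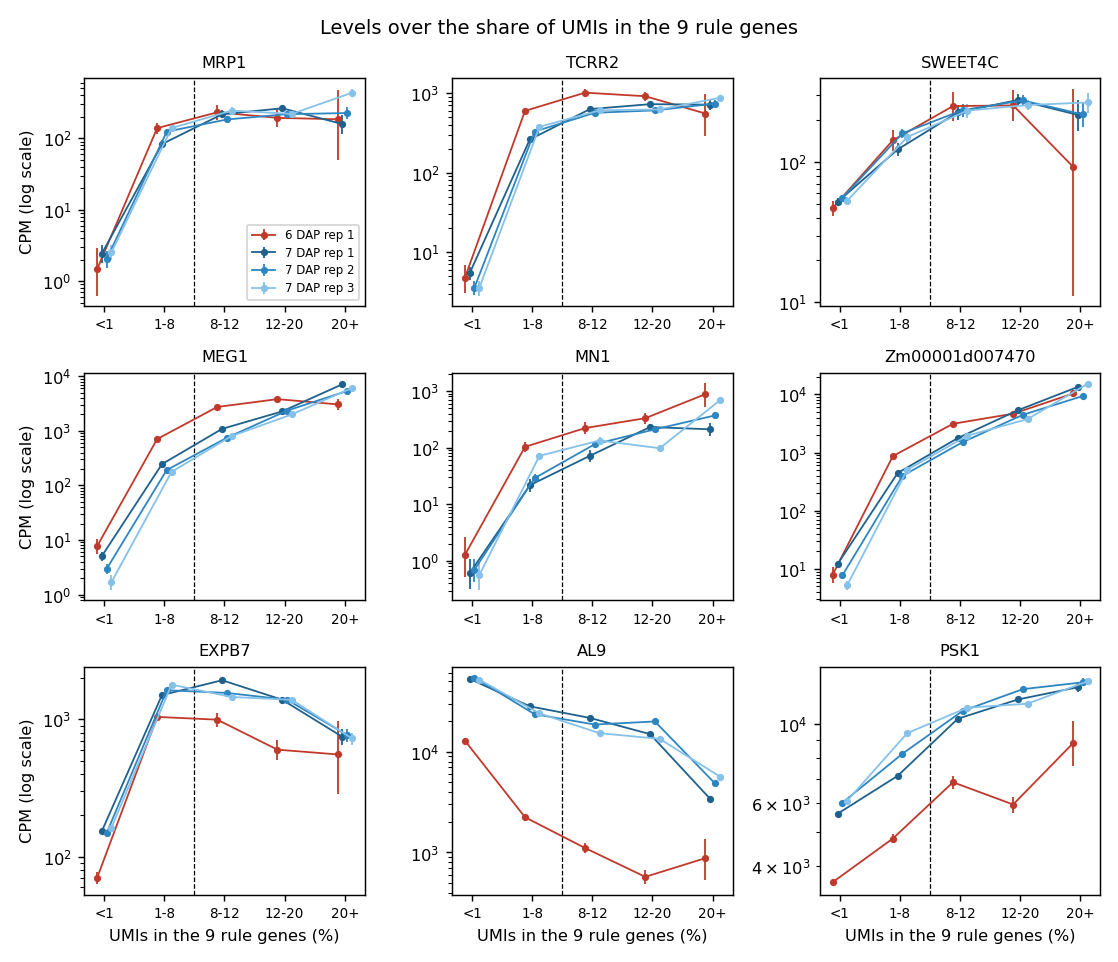
CPM (log scale) of 9 genes in kept cells grouped by the percent of UMIs in the rule genes (under 1, 1 to 8, 8 to 12, 12 to 20, and 20 or more), 1 line per library; bars are exact 95% Poisson intervals for counting error, groups with 0 UMIs are not drawn, and the dashed line marks the limit of 8%. MEG1 and Zm00001d007470 climb through the last group at 7 DAP, SWEET4C levels off, MRP1 has no common direction there, and EXPB7 and AL9 fall.

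Between ages, most BETL genes of the lists differed by less than 2-fold in BETL-strong cells, MRP1, MEG1, MN1 and all 18 tested MRP1 targets among them. A gene was counted as higher (lower) at 6 DAP when its CPM in BETL-strong cells exceeded the highest 7 DAP library (fell short of the lowest) by at least 2-fold, with at least 10 CPM at the higher age. Of 9615 genes tested, 778 (8.09%) were higher and 212 (2.20%) were lower at 6 DAP. This balance depends on scaling and depth: with libraries centred by median ratios 316 were higher and 451 lower, and with a minimum of 50 CPM 164 and 48. Of 3 listed reference genes 1 was higher at 6 DAP. It was UBI1, the internal control of the study, at 853 CPM against 324 to 387 CPM at 7 DAP. With libraries centred by median ratios 0 of the 3 were higher and 1 was lower. The class held 567661 UMIs outside the rule genes at 6 DAP and 2734445 to 3921293 at 7 DAP, so 3 UMIs at 6 DAP make 5.29 CPM. Of the 376 genes higher in BETL-strong cells, 29 were higher and 9 lower at 6 DAP, shares close to those of all tested genes.

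**Figure D5:**
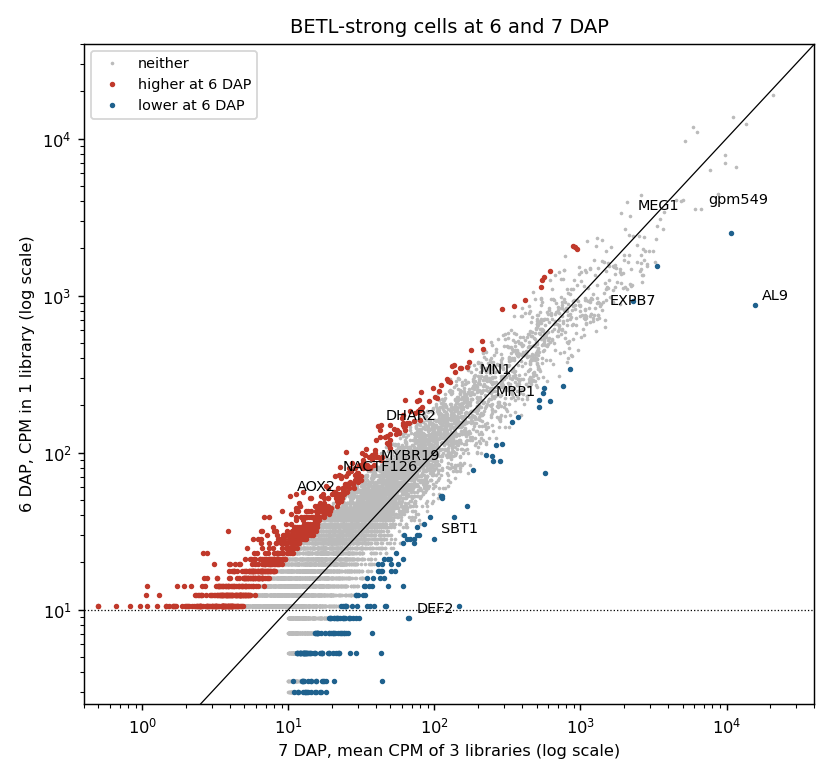
CPM in BETL-strong cells at 6 DAP (1 library) against the mean of 3 libraries at 7 DAP (both log scales); each point is a gene with at least 10 CPM at either age, colours mark genes past the 2-fold rule, and the dotted line is 10 CPM. MRP1, MEG1 and MN1 lie near the line of equal levels, AL9 far below it.

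Among the genes with at least 50 CPM, AOX2, an alternative oxidase of mitochondria, stood furthest above the 7 DAP libraries, with 52.9 CPM (30 UMIs) at 6 DAP and 9.87, 11.7 and 9.18 CPM at 7 DAP. The others were Zm00001d008035, Zm00001d037715, Zm00001d009779 (annotated as a dihydrolipoyl dehydrogenase), Zm00001d045919, DHAR2, Zm00001d031833 (a mitochondrial carrier) and NACTF126. Of these DHAR2, Zm00001d045919 and NACTF126 were also among the genes higher in BETL-strong cells. Their ratios to BETL-low cells were 62.7 to 93.3, 14.1 to 29.7 and 2.39 to 6.81. DHAR2 stood at 148 CPM at 6 DAP and 42.4, 36.3 and 45.1 CPM at 7 DAP. AOX2 was lower in BETL-strong than in BETL-low cells at both ages, with a ratio of 0.113 to 0.337. Of the 16 regulators, 2 were higher at 6 DAP, MYBR19 at 82.8 CPM against 36.9 to 39.7 CPM and NACTF49 at 292 CPM against 109 to 129.5 CPM, and neither passed with median-centred scaling.

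Lower at 6 DAP were AL9, described above, and Zm00001d013907, a nonspecific lipid transfer protein, at 10.6 CPM against 145, 147 and 148 CPM at 7 DAP. Zm00001d033909 stood at 74 CPM against 495 to 615 CPM, and DEF2, a defensin-like aleurone gene, at 8.81 CPM against 43.5 to 101 CPM. The list went on with Zm00001d007967, Zm00001d039780, Zm00001d008288 and the aleurone gene SBT1. AL9, DEF2, Zm00001d013907 and Zm00001d007967 also passed as lower at 6 DAP in BETL-low cells, where Zm00001d013907 stood at 122 CPM against 358 to 409 CPM and DEF2 at 145 CPM against 518 to 560 CPM. Of all 212 genes lower at 6 DAP in BETL-strong cells, 21 (9.91%) passed the same rule in BETL-low cells, and they were 10.2% of the 206 genes that passed there among 10596 tested.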

How the data were processed

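The libraries (1 at 6 DAP, 3 at 7 DAP, grouped by sample title) were made with the 10x 3′ v3 kit. What the authors deposited are UMI counts for each gene in each barcode, unnormalized, from Cell Ranger 4.0.0 per the file headers, on B73 v4 gene models. Of 21654 barcodes, 17271 with 500 to 7500 genes and at least 1000 UMIs were kept. Doublets were not called here; an alternative left out the 5% of cells with most UMIs. UMIs were summed per library and class and scaled to CPM outside the 9 rule genes. No p-value was computed. Members and gene lists were chosen with earlier results of these data known; the pathway lists hold genes that the study listed as cluster-enriched, from partly shortened tables. Named genes were drawn from the short lists and from the 4 with the largest ratio in each direction of longer lists. Only a selection of both is printed. Ranked genes with at least 50 CPM were also named: 15 higher, 10 lower, and 8 per direction between ages. TAR3, Zm00001d011751, Zm00001d045546 along the range of shares, and the transcription factors outside the list of 16 were singled out after their values were seen. Shares of cells were compared with cells thinned to 1000 UMIs. The fold rule was tested on simulated data. NumPy 2.4.6, SciPy 1.17.1 and pandas 2.3.3 were used.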

Additional observations from a re-analysis of the deposited data

Results flagged for a closer look

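The listed genes considered here were those tested and with at least 3 UMIs in every sum. At 6 DAP, 4 of them had a ratio of BETL-strong to BETL-low cells above 1, and below 1 in every 7 DAP library. The difference between ages was not tested. The NAC factor NACTF49 had a ratio of 1.04 at 6 DAP (exact 95% interval 0.878 to 1.22, counting error only) and 0.473 to 0.524 at 7 DAP. EREB79, an ethylene response factor, had 1.07 (0.867 to 1.31) and 0.719 to 0.728. The hexokinase gene HEX7 had 1.27 (1.095 to 1.46) and 0.804 to 0.899. The heat shock gene HSP26 had 1.39 on 30 UMIs (0.912 to 2.04) and 0.343 to 0.487. Only the interval of HEX7 lay above 1. Over all tested genes with at least 3 UMIs in every sum, 2 were at least 2-fold higher at 6 DAP and at least 2-fold lower in each 7 DAP library: TAR3 (3.36 against 0.2855 to 0.382) and Zm00001d011751 (2.04 against 0.387 to 0.431).

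Barcodes outside the limits on genes and UMIs, which entered no comparison, also held the BETL program. At least 8% of UMIs in the rule genes were found in 98 of them at 6 DAP and in 52, 39 and 21 in 7 DAP replicates 1, 2 and 3. Their median UMI counts were 789, 769.5, 746 and 763, and none had more than 7500 genes.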

How the results depend on the processing

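Of 95 named genes followed through 1235 combinations of gene and setting, 1118 moved by less than the SD over libraries, 117 moved by more, and 0 of the called ones changed direction. Leaving out 1 library in turn gave 389 to 404 higher and 1234 to 1735 lower genes, 888 to 1107 higher and 257 to 307 lower at 6 DAP, and a mean 7 DAP share of 8.90% to 9.39%; leaving out the 6 DAP library, and the leave-out of the share, were added after seeing the data. The count of lower genes was 1755 with CPM over all UMIs and 679 with median-ratio scaling, which gave 316 higher and 451 lower at 6 DAP. With a minimum of 50 CPM the counts were 185 higher, 432 lower, and 164 and 48 between ages. With a minimum of 1 CPM 938 were higher, and 3956 were higher at 6 DAP. At 4-fold they were 201, 189, 41 and 11, and at 1.5-fold 609, 2575, 2084 and 710. With at least 6% or 12% of UMIs in the rule genes, 501 and 1374 genes were higher at 6 DAP, and BETL-strong cells made up 12.4% and 4.17% at 6 DAP against 11.1% and 5.85% at 7 DAP, so the age order turned at the lower limit. Genes per cell in BETL-strong over BETL-low cells averaged 0.805 at 1000 UMIs, 1.05 as deposited, and 0.899 at 700 UMIs outside the rule genes, the last added after seeing the data. No paired analysis was possible because the ages share only replicate number 1. At 6 DAP 3 UMIs of BETL-strong cells make 5.29 CPM, which limits what can be counted among rare genes.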
